A study of Mus musculus with 4 samples.

Results

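Heterotrimeric G proteins, the regulators of G protein signalling (Rgs) and the beta-arrestins were examined in pancreatic islets, clusters of endocrine cells that make insulin and glucagon among other hormones, from GPR41 transgenic (Tg) mice and from their WT littermates. GPR41 is a receptor for short-chain fatty acids that couples to G proteins of the Gi/o class, and its mouse gene is Ffar3. All mice were C57BL/6 and 5 to 6 months old, the islets were held in RPMI medium, and 2 Affymetrix Mouse Gene 2.0 ST arrays were hybridised for each group. The labels do not give the promoter, the species of the transgene sequence or the number of founder lines, nor how many mice stand behind an array. The p-values therefore measure the spread between these samples only. The members were a list of 48 genes named by family and chosen with earlier results of these data known. Of them 46 had a probeset that the platform annotation pairs with that gene alone. They were 13 alpha, 4 beta and 7 gamma subunit genes, 20 Rgs genes with the binding protein gene Rgs7bp counted among them, and 2 arrestin genes, out of 22180 genes tested. Gnb2 and Gng13 had no such probeset and were not analysed here.

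In this pathway an activated receptor makes the alpha subunit exchange GDP for GTP, and alpha then parts from the beta-gamma dimer. Alpha subunits of the Gi/o class inhibit adenylyl cyclase, those of the Gs class stimulate it, and those of the Gq class activate phospholipase C beta. Free beta-gamma dimers open the G protein-gated potassium channels and activate phosphoinositide 3-kinase gamma. Rgs proteins speed up GTP hydrolysis by alpha and so shorten the signal, and beta-arrestins bind phosphorylated receptors and uncouple them. In beta cells Gi/o signalling restrains insulin secretion, whereas Gs and Gq signalling raise it.

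Values are log2 intensities, and a difference is Tg minus WT on that scale with its standard error (SE) from limma, whose adjusted p is Benjamini-Hochberg corrected over all 22180 genes. Ffar3 read 11.02 and 10.98 on the Tg arrays, against 7.09 and 6.47 on the WT arrays (difference 4.22, SE 0.21, limma adjusted p = 0.0020). The hormone genes Ins2, Gcg, Sst, Ppy and Iapp averaged 13.24 and 13.19 on the Tg arrays, against 13.33 and 13.22 on the WT arrays. Exocrine genes were also bright. The mean of 6 acinar markers was 11.63 and 11.20 on the Tg arrays, against 10.85 and 11.84 on the WT arrays, and the mean of 5 duct markers was 8.08 and 7.85 on the Tg arrays, against 7.07 and 8.43 on the WT arrays. In both lists the means of the WT arrays lay apart from each other, with those of the Tg arrays between them. The duct gene Cftr differed from its list and rose, with 7.80 and 7.75 in Tg islets, against 5.13 and 5.83 in WT islets (difference 2.30, SE 0.23, limma adjusted p = 0.0211).

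Among the 46 genes the Rgs group held the changes that passed limma's test. The 24 subunit genes held 0, with 3 at an unadjusted p under 0.05. At an adjusted p under 0.05, 2 members fell and 0 rose. Over all genes 0.897% passed in either direction, with 0.225% of all genes lower and 0.672% higher in Tg islets. These were Rgs16 and Rgs7bp. At an unadjusted p under 0.05 there were 12 members, 7 higher and 5 lower, which is 26.1% of the 46. Over all genes 11.8% passed that limit, 6.13% higher and 5.72% lower. The median difference of the members was 0.0006, with 23 higher and 23 lower, and that of all genes was -0.02. Differences under 0.25 in size made up 21 of 24 subunit genes and 11 of 20 Rgs genes, against 79.7% of all genes.

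**Figure D1:**
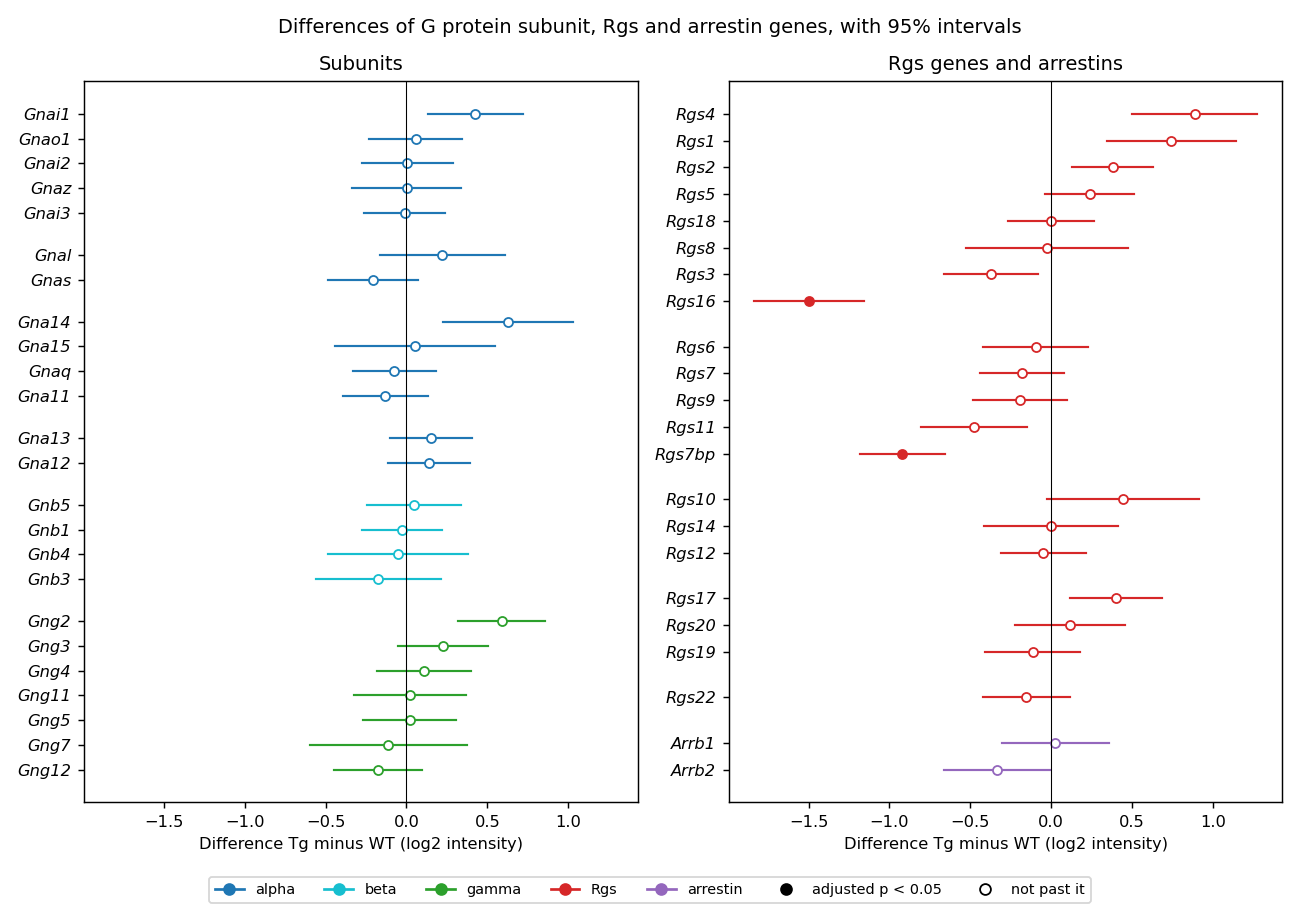
Difference in log2 intensity, Tg minus WT, for each of the 46 measured members (points) with its 95% confidence interval (lines), grouped by role from top to bottom. Filled points mark Rgs16 and Rgs7bp, which passed an adjusted p of 0.05. The alpha, beta and gamma genes lie near 0 except Gna14 (0.63), Gng2 (0.59) and Gnai1 (0.42), while the Rgs genes spread from -1.50 to 0.89.

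Alpha subunits of the Gi/o class, the partners of GPR41, were nearly level between the groups. Gnai2 read 12.51 and 12.50 in Tg islets, against 12.60 and 12.41 in WT islets (difference 0.01, SE 0.11). Gnao1, the Go alpha subunit abundant in neurons and endocrine cells, read 12.09 and 12.01 in Tg islets, against 12.09 and 11.91 in WT islets (difference 0.06, SE 0.12). In both genes the Tg values lay within or at the edge of the WT range. Gnai3 (difference -0.01, SE 0.10) read 10.04 and 10.09 in Tg islets, against 10.10 and 10.05 in WT islets. Gnaz, whose product Gz restrains insulin secretion in mouse beta cells, read 9.33 and 9.36 in Tg islets, against 9.503 and 9.19 in WT islets (difference 0.0012, SE 0.14). The 95% intervals ran from -0.28 to 0.29 for Gnai2 and from -0.23 to 0.34 for Gnao1. They ran from -0.26 to 0.24 for Gnai3 and from -0.34 to 0.34 for Gnaz, so for each gene differences within its interval remain possible. Gnai1 was the exception of the class, with 9.53 and 9.46 in Tg islets, against 8.97 and 9.17 in WT islets. Its groups did not overlap, and its difference of 0.42 (SE 0.12) had a limma adjusted p of 0.251.

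None of the 13 alpha genes passed limma's test, and 2 had an unadjusted p under 0.05, Gnai1 and Gna14. Gnas, which encodes Gs alpha, read 8.31 and 8.30 in Tg islets, against 8.60 and 8.42 in WT islets (difference -0.21, SE 0.11, limma adjusted p = 0.551; -0.12 without WT replicate 1). The Gnas locus gives several overlapping transcripts, and which of them this probeset reads was not examined. Gnal, the olfactory relative of Gnas, had a difference of 0.22 (SE 0.16). In the Gq class, Gna14 read 7.11 and 7.22 in Tg islets, against 6.33 and 6.75 in WT islets, without overlap (difference 0.63, SE 0.16, limma adjusted p = 0.216; 0.42 without WT replicate 1). The main Gq genes Gnaq (-0.07, SE 0.10) and Gna11 (-0.13, SE 0.11) lay slightly lower in Tg islets. Gna15, the member of this class found in blood cells, read 5.41 and 6.00 in Tg islets, against 5.68 and 5.63 in WT islets, so the Tg arrays enclosed the WT arrays. The G12 class genes Gna13 and Gna12 had differences of 0.15 (SE 0.10) and 0.14 (SE 0.10). Gna13 read 9.69 and 9.64 in Tg islets, against 9.53 and 9.49 in WT islets, with a limma adjusted p of 0.644. Of the 13 alpha genes 9 were higher and 4 lower in Tg islets, with a median difference of 0.05.

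Beta subunits differed little. Gnb1 read 12.77 and 12.77 in Tg islets, against 12.81 and 12.79 in WT islets (difference -0.03, SE 0.10). Gnb5, the atypical subunit that pairs with Rgs proteins of the R7 subfamily in place of a gamma subunit, read 8.62 and 8.65 in Tg islets, against 8.70 and 8.49 in WT islets (difference 0.04, SE 0.12). Gnb4 (-0.05, SE 0.18) had overlapping groups too. Gnb3 had the smallest p of the class, with 4.38 and 4.65 in Tg islets, against 4.53 and 4.84 in WT islets (difference -0.17, SE 0.16, limma adjusted p = 0.756). With 1 array left out its difference was -0.04 without Tg replicate 1, -0.31 without Tg replicate 2, -0.33 without WT replicate 1 and -0.02 without WT replicate 2. It lay below the first quartile of all probesets on every array, where differences are compressed.

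Gamma subunits, which anchor the dimer to the membrane through a lipid group, held 0 calls. Gng2 read 7.95 and 8.09 in Tg islets, against 7.43 and 7.43 in WT islets, a gap wider than the spread within either group (difference 0.59, SE 0.11). It did not pass over all genes (limma adjusted p = 0.101). Gng12 (-0.18, SE 0.11), Gng4 (0.11, SE 0.12) and Gng5 (0.02, SE 0.12) differed by less than 0.25. Gng12 lay below WT without overlap, and so did its dimmer second probeset at -0.38 (SE 0.13), while 2 further probesets of Gng5 stood at -0.10 and -0.06, a sign opposite to the bright one. Gng3 (0.22), Gng11 (0.02) and Gng7 (-0.11) completed the class, and Gng3 lay above WT without overlap but below the first quartile on all arrays.

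Rgs16 fell most of all members. It encodes a small Rgs protein of the R4 subfamily, which acts on Gi and Gq alpha subunits. Its values were 8.55 and 8.32 in Tg islets, against 9.82 and 10.04 in WT islets, a 2.82-fold lower level (difference -1.50, SE 0.14, 95% confidence interval -1.84 to -1.16, limma adjusted p = 0.0177). Both Tg arrays lay more than a log2 unit under both WT arrays. Without WT replicate 1 the adjusted p was 0.0350. It was 0.0872 without Tg replicate 1, 0.0877 without Tg replicate 2 and 0.0580 without WT replicate 2, with differences between -1.62 and -1.38. Without limma's variance moderation it was 0.512.

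Rgs7bp was the other member that fell. Its product binds R7 subfamily Rgs proteins together with Gnb5 and carries them between the plasma membrane and the interior of the cell. It read 7.85 and 7.73 in Tg islets, against 8.73 and 8.69 in WT islets, a 1.89-fold lower level (difference -0.92, SE 0.11, 95% confidence interval -1.18 to -0.66, limma adjusted p = 0.0334). The groups lay far apart beside the gap within either group. With 1 array left out the difference stayed between -0.98 and -0.86, and the adjusted p was 0.167 without Tg replicate 1, 0.156 without Tg replicate 2, 0.0883 without WT replicate 1 and 0.0954 without WT replicate 2. Without moderation it was 0.472.

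**Figure D2:**
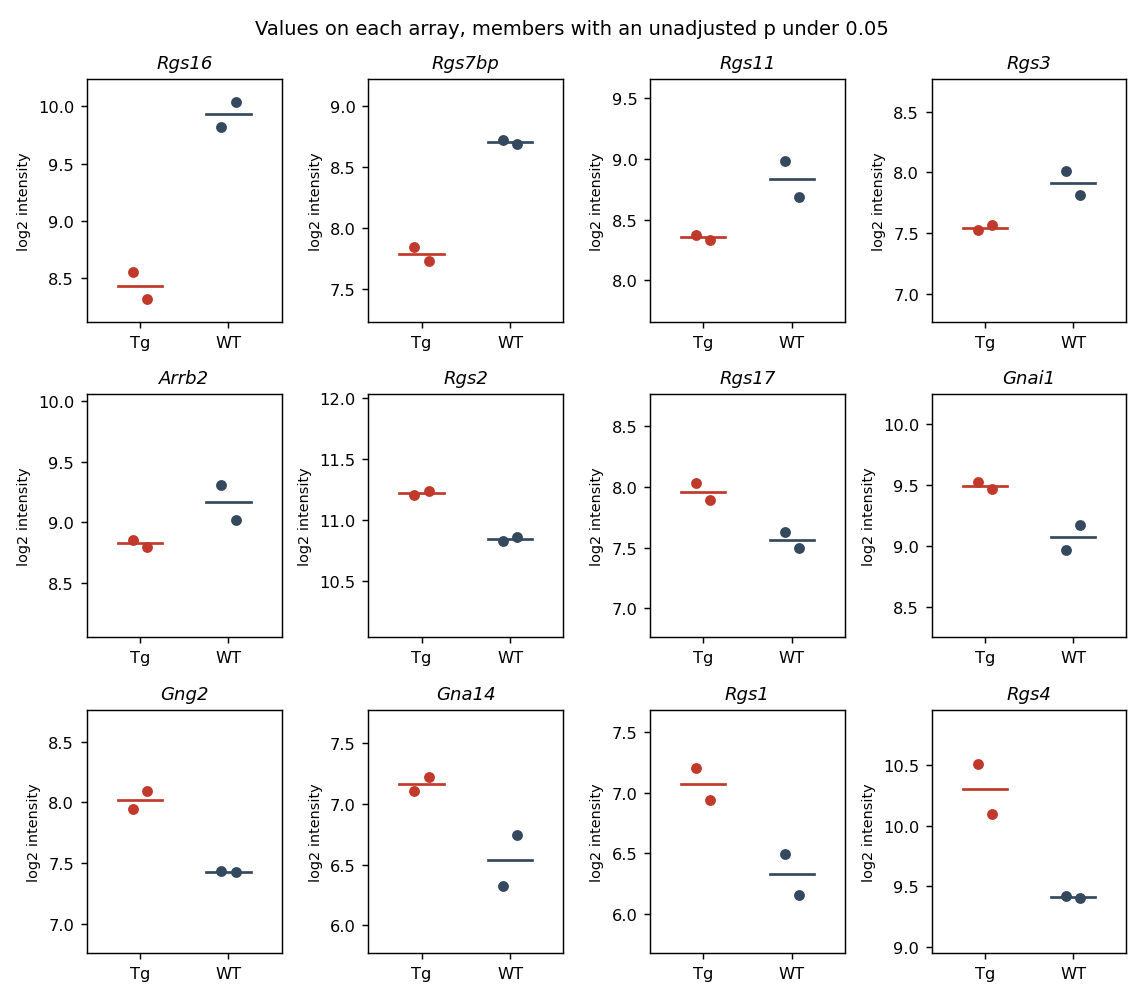
Log2 intensity on each array for the 12 members with an unadjusted p under 0.05, ordered by their difference from lowest to highest. Points are the 2 Tg arrays (left) and the 2 WT arrays (right), bars are group means, and each panel has its own vertical range of at least 2 log2 units. The groups do not overlap in any of the 12 panels, which picking them by that p favours. Rgs16 and Rgs7bp show the widest gaps below WT.

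The promoters of Rgs16, Rgs7bp and Rgs4 are shown because the first pair are the members that fell and Rgs4 is the member with the largest positive difference. Each line gives the 250 bases before the annotated start from RefSeq (GRCm38.p6), 5′ to 3′ on the strand of the gene. Capitals mark matches on either strand to the letters TATAAA of the TATA box, CCAAT of the box named for it, TGACG in the core of the cAMP response element, GGGCGG of the GC box, or CACGTG of the E-box, and overlapping matches run together. The windows are chr1:153740103-153740352 on the plus strand for Rgs16, chr13:105054931-105055180 on the minus strand for Rgs7bp and chr1:169747643-169747892 on the minus strand for Rgs4.
Rgs16: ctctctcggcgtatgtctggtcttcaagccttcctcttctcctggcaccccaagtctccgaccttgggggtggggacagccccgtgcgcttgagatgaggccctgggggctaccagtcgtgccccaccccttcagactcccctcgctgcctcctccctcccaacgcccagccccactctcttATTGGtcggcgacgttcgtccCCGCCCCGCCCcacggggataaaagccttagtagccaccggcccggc
Rgs7bp: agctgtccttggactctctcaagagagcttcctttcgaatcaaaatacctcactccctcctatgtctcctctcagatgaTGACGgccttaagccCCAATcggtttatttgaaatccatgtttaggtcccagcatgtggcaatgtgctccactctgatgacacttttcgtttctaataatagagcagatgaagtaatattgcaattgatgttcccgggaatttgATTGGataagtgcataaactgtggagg
Rgs4: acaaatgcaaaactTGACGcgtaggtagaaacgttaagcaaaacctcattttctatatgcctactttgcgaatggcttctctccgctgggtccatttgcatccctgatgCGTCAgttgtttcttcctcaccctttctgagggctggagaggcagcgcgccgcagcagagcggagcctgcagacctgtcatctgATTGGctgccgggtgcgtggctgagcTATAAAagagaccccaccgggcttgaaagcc
The Rgs16 window held 66.4% G and C, with 2 overlapping GC boxes that begin 47 and 42 bases before the start and 1 CCAAT box at 68 bases. The Rgs7bp window held 43.2% G and C, 2 CCAAT boxes at 156 and 27 bases and 1 core of the cAMP response element at 171 bases. The Rgs4 window (53.6% G and C) held the only TATA box of the 3, 31 bases before the start, with a CCAAT box at 57 bases and cores at 236 and 141 bases. None of the 3 windows held CACGTG. Over 32841 windows of this length in the table, 12.4% held TATAAA, 33.9% CCAAT, 17.8% TGACG, 32.8% GGGCGG and 6.02% CACGTG. Of the motifs searched, CCAAT was in all 3 windows. The table held promoters for 34 of the 48 listed genes.

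Within the R4 subfamily the members pointed in both directions. Rgs4, which acts on Gi and Gq alpha subunits, read 10.50 and 10.09 in Tg islets, against 9.42 and 9.40 in WT islets. The groups were well apart and the Tg arrays differed from each other by 0.41 (difference 0.89, SE 0.16, limma adjusted p = 0.0908). Rgs1, an Rgs gene of lymphocytes and other leukocytes, read 7.21 and 6.94 in Tg islets, against 6.49 and 6.16 in WT islets (difference 0.74, SE 0.16, limma adjusted p = 0.148). Rgs2, which acts chiefly on Gq, read 11.21 and 11.24 in Tg islets, against 10.83 and 10.86 in WT islets (difference 0.38, SE 0.10, limma adjusted p = 0.227). Its second, dimmer probeset gave 0.44 (SE 0.11), close to the bright one. Rgs3 was lower, with 7.52 and 7.56 in Tg islets, against 8.02 and 7.82 in WT islets (difference -0.37, SE 0.12, limma adjusted p = 0.300). Rgs5, a gene of pericytes, had a difference of 0.24 (SE 0.11) without overlap, and 0.16 in its second probeset. Rgs8 (-0.02) and Rgs18 (-0.0021) were level, but Rgs18 lay below the first quartile on all arrays, where differences are compressed.

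The R7 subfamily acts on Gi/o alpha subunits, and Rgs7bp, the gene of its binding protein, was grouped with it. All 5 genes of this group had a negative difference, with a median of -0.19, and 54.3% of all genes had one. Rgs7bp alone among them passed the test. Rgs11 read 8.38 and 8.34 in Tg islets, against 8.98 and 8.68 in WT islets (difference -0.48, SE 0.13, limma adjusted p = 0.252). Rgs9 (-0.19, SE 0.12) and Rgs7 (-0.18, SE 0.10) lay below WT without overlap, and Rgs6 (-0.10, SE 0.13) overlapped. The mean of the 5 genes, with Rgs7bp (-0.92) among them, was 7.88 and 7.88 on the Tg arrays, against 8.31 and 8.20 on the WT arrays.

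The remaining Rgs genes were mixed. Rgs17, of the RZ subfamily that acts on Gz and other Gi/o alphas, read 8.03 and 7.89 in Tg islets, against 7.62 and 7.49 in WT islets (difference 0.40, SE 0.11, limma adjusted p = 0.263). Its relatives Rgs20 (0.12, SE 0.14) and Rgs19 (-0.11, SE 0.12) overlapped between the groups. Rgs10, of the R12 subfamily, read 7.48 and 6.98 in Tg islets, against 6.89 and 6.68 in WT islets (difference 0.45, SE 0.19, limma adjusted p = 0.445), and it was 0.19 without Tg replicate 1 and 0.70 without Tg replicate 2. Rgs12 (-0.05) and Rgs14 (0.0000) were level. Rgs22 read 4.53 and 4.61 in Tg islets, against 4.78 and 4.66 in WT islets (difference -0.15, SE 0.11, limma adjusted p = 0.664; -0.09 without WT replicate 1), below the first quartile on every array.

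Neither arrestin passed the test. Arrb2, beta-arrestin 2, read 8.86 and 8.80 in Tg islets, against 9.31 and 9.02 in WT islets, without overlap (difference -0.34, SE 0.13, limma adjusted p = 0.407; -0.19 without WT replicate 1). Arrb1, beta-arrestin 1, read 7.48 and 7.67 in Tg islets, against 7.43 and 7.67 in WT islets (difference 0.03, SE 0.13, limma adjusted p = 0.973).

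Groups did not overlap in 25 of the 46 members (54.3%), 12 with Tg above and 13 with Tg below WT. Over all genes 42.3% had such groups, 18.6% with Tg above and 23.7% with Tg below WT. A difference of at least 1.5-fold was reached by 6 members (13.0%), against 3.76% of all genes. These were Rgs16, Rgs7bp, Rgs4, Rgs1, Gna14 and Gng2. The median gap between arrays of a group was 0.11 for Tg and 0.15 for WT in the members, close to 0.12 for Tg and 0.14 for WT in all genes. In 5 members, Gnb3, Gng3, Rgs18, Rgs20 and Rgs22, all 4 values lay below the first quartile.

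**Figure D3:**
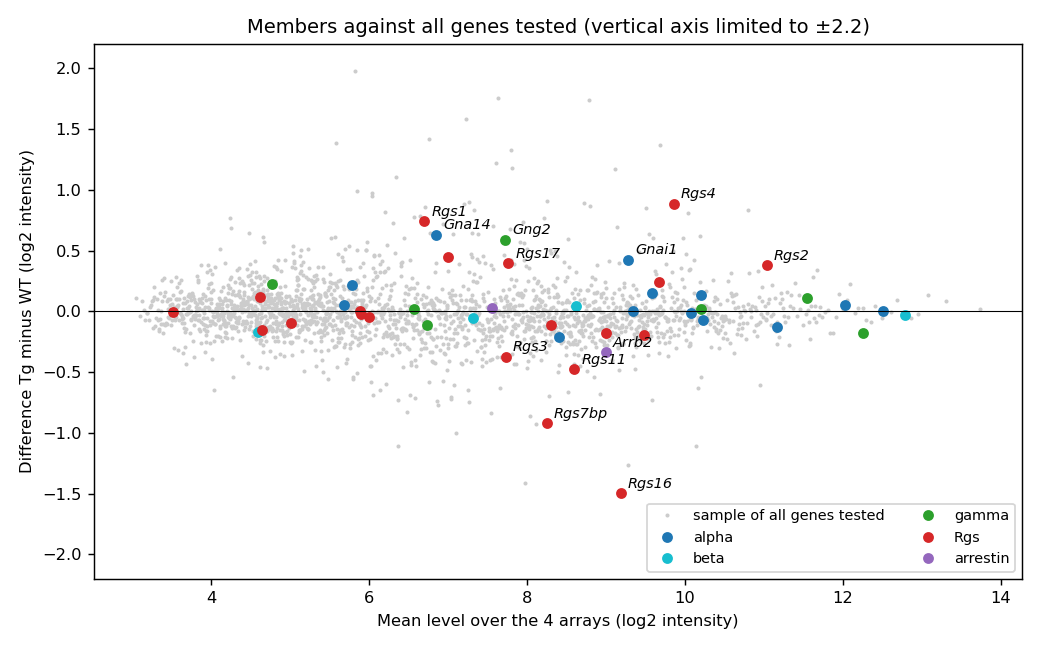
Difference Tg minus WT against the mean level over the 4 arrays, both in log2 intensity, for the 46 members (coloured by role) over a sample of all genes tested (grey). Members with an unadjusted p under 0.05 are named. Rgs16 and Rgs7bp lie away from the dim end of the horizontal axis, at -1.50 and -0.92, and Gnb1 and Gnai2 at its bright end lie near 0.

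Members that lie next to each other in the genome had unlike differences in several cases. Of 19 listed Rgs genes 9 are on chromosome 1 in the RefSeq GRCm38 order, which was used only for order. Rgs16 (-1.50) is adjacent to Rgs8 (-0.02), and Rgs4 (0.89) to Rgs5 (0.24). In the run of Rgs2, Rgs13, Rgs1, Rgs21 and Rgs18 the differences were 0.38, 0.28, 0.74, 0.0012 and -0.0021. Rgs13, no member, read 6.30 and 4.26 on the Tg arrays, against 4.70 and 5.29 on the WT arrays, so its Tg arrays enclosed WT. On chromosome 19 Gna14 (0.63) is adjacent to Gnaq (-0.07).

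Marker genes of other cell types moved with the same comparison. All 19 measured immune markers were higher in Tg islets (median difference 0.94), where 45.7% of all genes were higher, and 2 rose, Coro1a and Cd53, where 0.672% of all genes rose. Their mean was 8.03 and 7.59 on the Tg arrays, against 6.93 and 6.80 on the WT arrays, and no immune marker lay below the first quartile on all arrays. All 12 endothelial markers were higher (median 0.40), with means of 8.59 and 8.29 on the Tg arrays, against 8.10 and 7.92 on the WT arrays. Of 14 pericyte and mesenchymal markers 13 were higher (median 0.16), with means of 6.57 and 6.51 on the Tg arrays, against 6.18 and 6.28 on the WT arrays, and Lum was below the first quartile on all arrays. The immune and endothelial means were highest on Tg replicate 1. The mesenchymal means of the Tg arrays were close, and genes of that list went both ways between them. Dcn read 9.80 and 9.04 on Tg replicates 1 and 2, and Pdgfrb 8.15 and 8.20. Of the 12 members with Tg above WT without overlap, 7 were highest on Tg replicate 1 and 5 on Tg replicate 2. This split was nearly even, and the same split over all genes was not counted. The 7 were Gnai1, Gna13, Rgs1, Rgs4, Rgs5, Rgs10 and Rgs17, and Gng2 was among the 5. In Gnai1 and Gna13 the Tg arrays were only 0.06 and 0.05 apart. Gna15 had overlapping groups. The part of these markers in the differences of the members, Rgs16 and Rgs7bp included, was not tested, and in whole islets fewer cells of a type cannot be told apart from less RNA per cell. Neuron and Schwann cell markers numbered 1 higher and 4 lower of 5, with means of 6.79 and 6.79 on the Tg arrays, against 7.05 and 6.77 on the WT arrays.

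**Figure D4:**
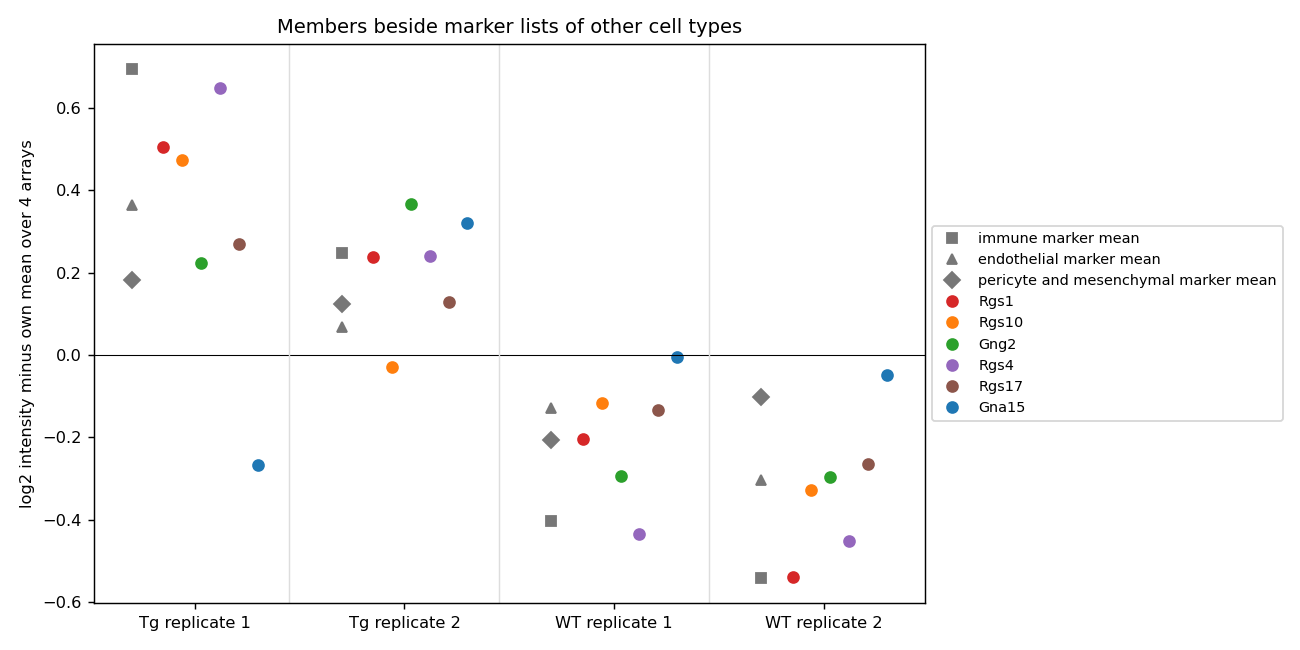
Log2 intensity on each array minus the gene's or list's own mean over the 4 arrays, for 6 members (coloured circles) and for the means of 3 marker lists (grey symbols). On both Tg arrays the immune mean and Rgs1, Rgs4, Gng2 and Rgs17 lie above 0 and on both WT arrays below it. Rgs10 lies above 0 on Tg replicate 1 but slightly below it on Tg replicate 2. Gna15 is lowest on Tg replicate 1.

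Of 52 other G protein signalling genes listed beside the members, 49 were measured, with 2 higher and 0 lower past the test (4.08% of the list, against 0.897% of all genes). At an unadjusted p under 0.05 there were 7 higher and 5 lower (24.5%, against 11.8% of all genes), and the list median was -0.01. The list was written with earlier results of these data known, so these shares are no test of enrichment. Kcnj5, a subunit of the G protein-gated potassium channels that beta-gamma dimers open, rose 7.41-fold. It read 8.43 and 8.07 in Tg islets, against 5.32 and 5.41 in WT islets (difference 2.89, SE 0.15, limma adjusted p = 0.0022). The other subunits of that channel family, also on the list, were picked for naming after their values were seen. Kcnj3 read 6.30 and 6.48 in Tg islets, against 7.14 and 6.81 in WT islets (difference -0.59, SE 0.15, limma adjusted p = 0.213). It also has a dimmer probeset, whose values are not given here. Kcnj6 read 6.09 and 5.98 in Tg islets, against 6.57 and 6.44 in WT islets (difference -0.47, SE 0.11, limma adjusted p = 0.181). Kcnj9 had a difference of 0.18 (SE 0.13) with overlapping groups.

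Pik3cg, the catalytic subunit of the lipid kinase that beta-gamma dimers activate, rose 1.85-fold. It read 7.44 and 7.26 in Tg islets, against 6.51 and 6.41 in WT islets (difference 0.89, SE 0.12, limma adjusted p = 0.0425). Its call was lost with any array left out, at adjusted p-values of 0.253 without Tg replicate 1, 0.134 without Tg replicate 2, 0.0912 without WT replicate 1 and 0.134 without WT replicate 2, while Kcnj5 kept its call in all 4. Pik3cg is mainly a leukocyte gene, and the immune markers above were higher on the same arrays, whose part in this difference was not tested. Rasgrf2, a Ras and Rac exchange factor, read 6.90 and 7.01 in Tg islets, against 8.30 and 7.83 in WT islets (difference -1.11, SE 0.17, limma adjusted p = 0.0678). Arrdc3, an arrestin-domain adaptor, read 10.13 and 10.24 in Tg islets, against 9.61 and 9.39 in WT islets (difference 0.69, SE 0.12, limma adjusted p = 0.0967).

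Receptor kinases and adenylyl cyclases were given outside the naming rule, after their values were seen. Grk5, a kinase that phosphorylates receptors for arrestin binding, was lower, with 8.19 and 8.18 in Tg islets, against 8.71 and 8.69 in WT islets (difference -0.51, SE 0.10, limma adjusted p = 0.115). The other measured kinases differed less, at 0.15 for Grk1, 0.13 for Grk3, -0.17 for Grk4 and 0.04 for Grk6. Among adenylyl cyclases, Adcy4 (0.55, SE 0.10) and Adcy7 (0.32, SE 0.12) lay above WT and Adcy6 (-0.40, SE 0.12) below it, all without overlap and none past the test. Adcy1, Adcy2, Adcy5, Adcy8 and Adcy9 had overlapping groups, and 42.3% of all genes had groups without overlap.

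**Figure D5:**
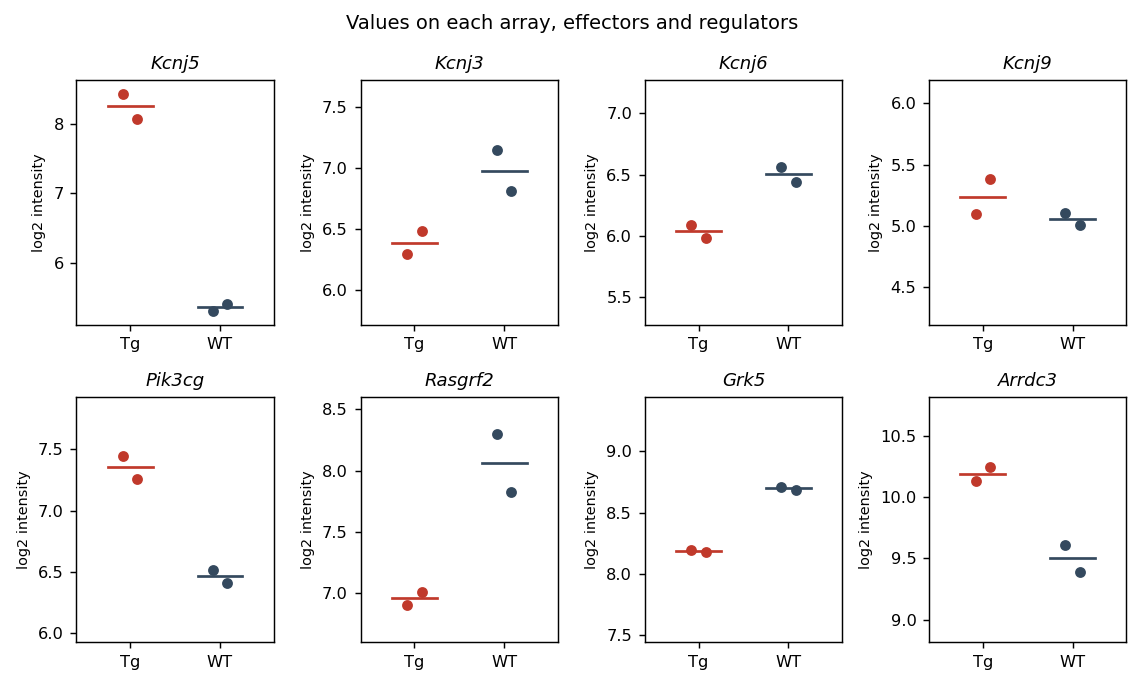
Log2 intensity on each array for 8 effector and regulator genes outside the member list, with the 2 Tg arrays on the left and the 2 WT arrays on the right of each panel and bars at the group means. Panels have their own vertical ranges. Kcnj5 stands far above WT in Tg islets (2.89), Kcnj3 and Kcnj6 lie below WT, and Kcnj9 overlaps.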

How the data were processed

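Total RNA (250 ng) from islets was labelled with an Affymetrix cDNA kit, per the labels, and hybridised to 4 arrays. The deposited values are log2 intensities, and the authors used Partek and RMA per the submitters' processing notes, without versions. Their range was 2.87 to 13.9 and array medians were 6.43 to 6.47. For the deposited values, the genome build: not given in the sources used here. The number of arrays limits the precision.

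Of 27037 probesets, 23521 had 1 gene symbol, 1814 had several and 1702 had none. Single-gene probesets were kept, the brightest per gene, with no filter. Groups came from the titles. Tg was compared with WT by lmFit and eBayes (limma 3.58.1, R 4.3.3) over 22180 genes, with Benjamini-Hochberg adjustment. A permutation test of 2 arrays against 2 cannot go below an exact two-sided p of 0.333. The steps were tested on simulated data. The alternatives were other probeset choices, a filter at the median level, normalisation, variance models, the replicate number as a block, and each array left out.

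The members and all lists were chosen with earlier results of these data known. Full values are given for members past an adjusted or unadjusted p of 0.05 or a difference of 0.58, for Gi/o alpha and arrestin genes, for the smallest p of any other class, and for the 4 pathway genes with the smallest p. The neighbouring genes, the Kcnj family, receptor kinases and cyclases, and some further members were added after their values were seen. Grk3 was matched through its older symbol.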

Additional observations from a re-analysis of the deposited data

How the results depend on the processing

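Over 14 alternatives, the calls of Rgs16, Rgs7bp, Kcnj5 and Pik3cg were kept in 37 of 56 cases, lost in 19 and never reversed. The count of members past an adjusted p of 0.05, 2 in the comparison reported, was 0 without moderation, 0 with the replicate block and 0 to 1 with each array left out. The count at an unadjusted p under 0.05 was 6 without moderation and 8 to 12 with each array left out. The pathway count was 4 with a variance trend, 4 with a trend and robust prior, 0 without moderation, 0 with the replicate block and 1 to 2 with each array left out. The cause of these shifts was not tested. The block and the left-out arrays both leave fewer residual degrees of freedom, and the part of this was not tested either. The members' median difference ranged from -0.027 to 0.0198 when arrays were left out singly. With the replicate number as a block the adjusted p was 0.126 for Rgs16, 0.146 for Rgs7bp, 0.0520 for Kcnj5 and 0.149 for Pik3cg. Over all genes, the gaps between replicates 1 and 2 of Tg and of WT had a correlation of -0.06. Members went both ways, with gaps of 0.27 in Tg and 0.33 in WT for Rgs1, against 0.24 and -0.22 for Rgs16. The titles name biological replicates and no pairs, so the main comparison did not pair the arrays. Whether same-numbered arrays were handled together was not tested. Genes not past the test gained a call in 7 of 306 cases. With a trend and robust prior these were Rgs4 (adjusted p = 0.0312), Rasgrf2 (0.0329) and Arrdc3 (0.0321), with the trend alone Rasgrf2 and Arrdc3 (0.0497 each), and Rasgrf2 also with the filter (0.0482) and without WT replicate 2 (0.0470). Gnb3 and Rgs22 gave no value under the filter. Rgs16, Rgs7bp, Kcnj5 and Pik3cg each have 1 single-gene probeset, so the other probeset choices left their differences unchanged by construction. Signs turned in 5 of the 22 named genes that had not passed. Gnai2 was at -0.0485 after quantile normalisation and -0.0146 after centring, and Gnaz at -0.0190 after centring. With arrays left out singly the differences were -0.0879 to 0.0990 for Gnai2, -0.155 to 0.158 for Gnaz, -0.0366 to 0.0140 for Gnai3, -0.0355 to 0.148 for Gnao1 and -0.0913 to 0.145 for Arrb1. Dim members, such as Gnb3 and Rgs18, give compressed differences.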
